A study of Drosophila melanogaster with 3 samples.

Results

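The genes described here are 48 nuclear tRNA genes of Drosophila melanogaster whose anticodons begin with uridine, in 12 anticodon families that carry glutamine (Gln-TTG), arginine (Arg-TCT and Arg-TCG), alanine (Ala-TGC), glycine (Gly-TCC), proline (Pro-TGG), threonine (Thr-TGT), valine (Val-TAC), serine (Ser-TGA), leucine (Leu-TAA and Leu-TAG) and isoleucine (Ile-TAT). They were chosen by symbol alone, out of 290 nuclear tRNA genes and 3546 noncoding genes in the authors' deposited table, and the lysine and glutamate families that also begin with uridine were not among them. The study asked whether Sex-lethal (Sxl), an RNA-binding protein known for its part in fly sex determination, makes RNA polymerase III of male neurons produce more tRNA.

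Small RNA came from whole heads of adult males that carried tub-GAL80ts, a temperature-sensitive repressor of GAL4, with the pan-neuronal driver nSyb-GAL4 and UAS-SxlRAC. Controls combined nSyb-GAL4 with UAS-mCherry at attP2, and the labels do not repeat tub-GAL80ts for them. The listed flies grew at 18 °C and spent 4 days at 29 °C after eclosion. The labels name the molecule as polyA RNA although the kit they give makes small RNA libraries, and which RNA fraction entered the libraries was not tested. The labels list 3 Sxl-RAC samples, and controls enter only through the authors' comparison. Nothing in the labels says whether libraries came from separate batches of flies, so p-values may measure technical spread only. Whole heads also hold glia, muscle, fat body and other cells in which the driver is silent, and fewer cells of a type cannot be told apart from less RNA per cell. The table lists no protein-coding gene, neither Sxl nor a coding marker of neurons. Of the microRNAs used as tissue markers, mir-276a had a mean normalised count of 244708 and mir-7, known from photoreceptor development, 15226 in the authors' deposited table, while the neuronal mir-124 had 12.9. Of these mir-7 was called lower (log2 fold change -0.48, DESeq2 adjusted p 2.82e-05) and mir-276a was at 0.11 without a call. The muscle microRNAs mir-1 and mir-133 were at 4750 and 6835, with log2 fold changes of -0.46 and 0.23, called in opposite directions. The cell make-up of the heads, eye and muscle included, and its part in the tRNA values were not tested.

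A tRNA reads codons with its anticodon, and the first anticodon base pairs with the last, or wobble, base of the codon. A uridine in that anticodon position can pair with more than 1 codon, and in many of these tRNAs the enzyme complex Elongator adds side chains to it that tune the pairing. In yeast the glutamine, lysine and glutamate tRNAs of this kind are also thiolated. RNA polymerase III transcribes tRNA genes from promoter elements inside the gene. Small RNA libraries capture tRNA and its fragments, and the fold and modifications of a tRNA can stop the enzyme that copies it, so that a count is not the amount of intact, charged tRNA. The 12 families divide into 8 that serve boxes of 4 codons for 1 amino acid and 4 that serve split boxes (Gln-TTG, Arg-TCT, Leu-TAA and Ile-TAT).

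None of these genes changed detectably on the scale the authors used. Of 48 genes, 43 had reads and 14 had an adjusted p, and 0 of the 14 were called, that is had an adjusted p under 0.05 from the Wald test of DESeq2, in the authors' deposited table. There, 5.14% of 1128 genes with an adjusted p and 21.2% of 137 nuclear tRNA genes were called. Most of those called nuclear tRNA genes were copies of Lys-CTT, Glu-TTC and Lys-TTT. Copies of a family may share reads, so the share counts copies and not separate measurements. At an unadjusted p under 0.05 there were 0 of 43, against 14.1% of 277 nuclear tRNA genes and 7.4% of all 1379 genes with a p-value. All 14 genes with an adjusted p belong to the Pro-TGG, Gly-TCC, Val-TAC and Ala-TGC families, and 10 of them lay below 0. The smallest adjusted p was 0.249 for tRNA:Pro-TGG-1-1.

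The level of the genes spanned several orders of magnitude. Pro-TGG held 89.9% of the mean normalised counts of the 48 genes. Averaged over copies and given per 100 bases of exon, its level was 1283, or 9.42 times that of Val-TAC at 136. Ala-TGC followed at 50.7 and Gly-TCC at 35.4, with copies of Gly-TCC between 15.4 and 58.8, a range that includes both Ala-TGC copies (49.0 and 52.5). Gln-TTG at 12.4, Leu-TAG at 10.6 and Ser-TGA at 9.36 had copies that overlapped. Below them came Ile-TAT at 3.24, Thr-TGT at 2.10, Arg-TCG at 1.02, Arg-TCT at 0.654 and Leu-TAA at 0.205. The order among these last families is uncertain, since 12 copies had a mean count above 0 but under 1. The 5 genes without any read were tRNA:Arg-TCG-3-4, tRNA:Arg-TCT-2-1, tRNA:Arg-TCT-3-1, tRNA:Leu-TAA-1-1 and tRNA:Leu-TAA-3-1. A count of 0 allows up to 3 reads, worth a mean count of 0.228 to 0.80 depending on the library, which covers counting error only.

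**Figure D1:**
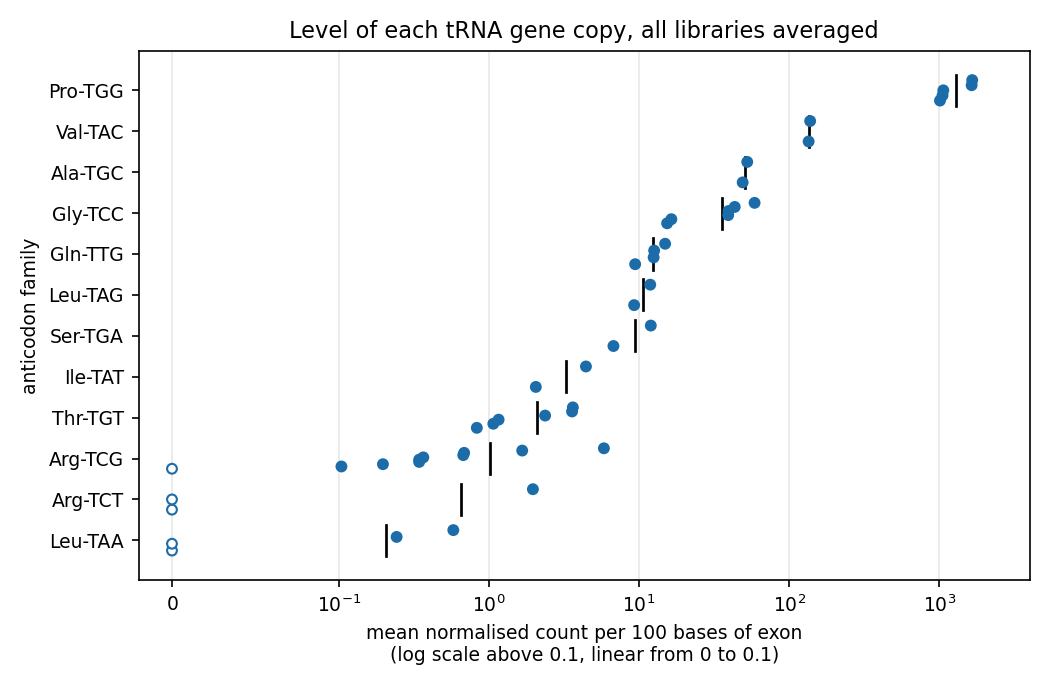
Each point is 1 gene copy, placed by its mean normalised count per 100 bases of exon on a horizontal axis that is logarithmic above 0.1, with families on the vertical axis; black bars are family means and open points are copies without reads. Pro-TGG copies stand above all others, with a mean of 1283, and the Leu-TAA mean of 0.205 is the lowest.

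A family's share of the genes and its share of the level differed widely in some families and were close in others. The 48 genes made up 16.6% of nuclear tRNA genes but 0.895% of the summed mean count of that class in the authors' deposited table. The 10 Arg-TCG genes were 38.5% of nuclear arginine tRNA genes and gave 3.89% of the arginine tRNA level per 100 bases, while 3 Arg-CCT genes gave 76.1%. Gly-TCC, with 6 of 20 glycine genes (30%), gave 0.682% of the glycine level beside Gly-GCC at 99.3%. Pro-TGG was the opposite case, with 29.4% of proline genes and 58.4% of the proline level, ahead of Pro-CGG at 35.4% and Pro-AGG at 6.14%. Leu-TAG, with 2 of 22 leucine genes, gave 39.2% of the leucine level. Ser-TGA gave 26.8% of the serine level with 10% of the serine genes. The shares lay nearer to each other for Val-TAC, with 13.3% of valine genes and 12.2% of the level, for Thr-TGT, with 35.3% and 30.3%, and for Gln-TTG, with 33.3% and 26.3%. The level share was the smaller one for Ile-TAT (18.2% of genes, 11.5% of the level), Ala-TGC (11.8% and 5.30%), Leu-TAA (18.2% and 1.52%) and Arg-TCT (11.5% and 0.748%). These shares describe what the libraries captured and how reads that match several copies were counted, which is not stated. The part of that counting in the shares was not tested.

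Pro-TGG, a tRNA for proline codons, was the family measured best. On chromosome 3R, 4 of its 5 copies lie between 17618110 and 17645681 (BDGP6.54), next to Val-CAC and Ala-AGC genes. Of these, tRNA:Pro-TGG-1-3 sits in an intron of CG43175 on the same strand and the other 3 are intergenic. The copy tRNA:Pro-TGG-1-5 (18628467 to 18628538) lies in an intron of qin, a gene of the piRNA pathway, on the opposite strand. In the authors' deposited table tRNA:Pro-TGG-1-5 had a mean count of 1192, which with its fold change and arms of equal size corresponds to 1223 in control and 1160 in Sxl-RAC libraries. The value for tRNA:Pro-TGG-1-1 was 1181, corresponding to 1246 and 1116. The remaining copies had 727 to 765, so that the 5 copies formed a higher pair and a lower trio whose extremes differed 1.64-fold. By the numbering of tRNA genes they share 1 isodecoder number, which marks copies with the same mature sequence. How the authors' counting split reads among such copies is not stated, so the copies are not separate measurements.

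All 5 Pro-TGG copies lay slightly below 0 in the authors' deposited table, and none was called. The log2 fold changes ran from -0.19 for tRNA:Pro-TGG-1-4 to -0.08 for tRNA:Pro-TGG-1-5, with a mean of -0.14 and an SD over copies of 0.05, against a median standard error of 0.12. For tRNA:Pro-TGG-1-1 the value, with the standard error the authors give (SE), was -0.16 ± 0.10 (SE; DESeq2 adjusted p 0.249). The 95% intervals of the 5 copies together reached from -0.42 to 0.14, that is from 0.748-fold to 1.1-fold. An estimated change of 1.19-fold to 1.24-fold, depending on the copy, would have been called, since the largest unadjusted p called among tRNA genes was 0.00990. A true change of that size could be estimated lower and be missed. The other proline families had like values: 7 Pro-AGG genes had a mean of -0.13 (lowest -0.28, highest 0.01) and 4 Pro-CGG genes a mean of -0.17 (lowest -0.32, highest -0.07). No proline gene was called among 16 with an adjusted p.

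**Figure D2:**
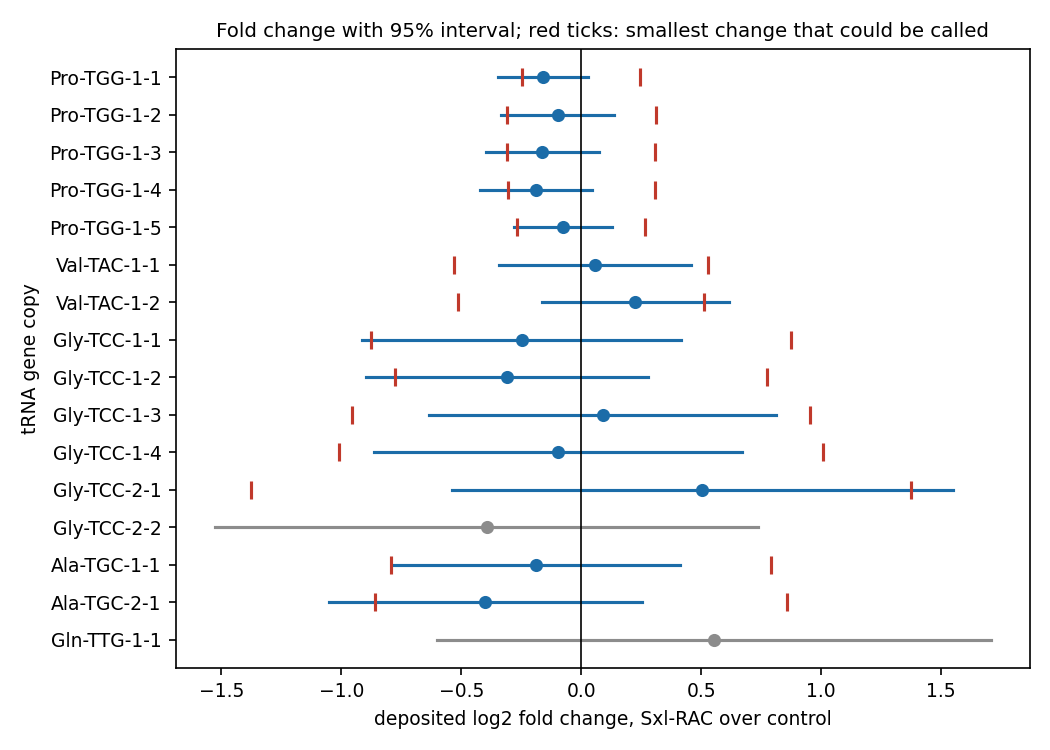
Points are deposited log2 fold changes (Sxl-RAC over control, horizontal axis) of the 16 gene copies that reach a mean count of 10. Lines are 95% intervals from the authors' standard errors. Red ticks mark the estimated change that matches the largest unadjusted p called among tRNA genes. Copies in grey had no adjusted p; all intervals include 0, and those of Pro-TGG are the narrowest.

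Of the 4 tested families, Val-TAC was the one with both copies above 0. Its genes tRNA:Val-TAC-1-1 and tRNA:Val-TAC-1-2 lie 247 bases apart on chromosome 3L, on opposite strands (5356343 to 5356415 and 5356662 to 5356734). In the authors' deposited table tRNA:Val-TAC-1-2 had a mean count of 101, corresponding to 92.7 in control and 109 in Sxl-RAC libraries. Its log2 fold change was 0.23 ± 0.20 (SE; DESeq2 adjusted p 0.504). For tRNA:Val-TAC-1-1 it was 0.06 ± 0.20 (SE; adjusted p 0.899). Neither exceeded 1.5 standard errors. By the largest unadjusted p called among tRNA genes, an estimated change of about 1.43-fold for tRNA:Val-TAC-1-2 and 1.44-fold for tRNA:Val-TAC-1-1 would have been called. The 7 Val-CAC genes, which read another valine codon, had a mean of -0.01 with an SD over copies of 0.13.

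Both Ala-TGC genes lay below 0. They sit 370 bases apart on chromosome 2R and differ in isodecoder number. In the authors' deposited table tRNA:Ala-TGC-2-1 (17392215 to 17392286) had a log2 fold change of -0.40 ± 0.33 (SE; DESeq2 adjusted p 0.475), at levels that correspond to 40.1 in control and 30.4 in Sxl-RAC libraries. For tRNA:Ala-TGC-1-1 it was -0.19 ± 0.31 (SE; adjusted p 0.817). By the same largest p, an estimated change of about 1.81-fold for tRNA:Ala-TGC-2-1 and 1.73-fold for tRNA:Ala-TGC-1-1 would have been called. The 12 Ala-AGC genes lay below 0 as well, from -0.46 to -0.09 with a mean of -0.30, while the 3 Ala-CGC genes had a mean of -0.01. None of the 15 was called, and whether Ala-TGC and Ala-CGC differ was not tested.

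The 6 Gly-TCC genes spread on both sides of 0. In the authors' deposited table the lowest was tRNA:Gly-TCC-2-2 at -0.39 ± 0.58 (SE), without an adjusted p, and the highest tRNA:Gly-TCC-2-1 at 0.51 ± 0.53 (SE; DESeq2 adjusted p 0.630). This pair shares an isodecoder number and lies 5239 bases apart on chromosome 2R. The signs were opposite, but the 95% intervals of the pair overlap and both include 0.

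Among the 4 copies of the other Gly-TCC isodecoder, 2 lie on chromosome 3R in an intron of sr, a transcription factor gene, on the same strand. Of that pair tRNA:Gly-TCC-1-3 (18108637 to 18108708) had a log2 fold change of 0.09 ± 0.37 (SE; DESeq2 adjusted p 0.899) in the authors' deposited table. For tRNA:Gly-TCC-1-4 it was -0.10 ± 0.39 (SE; DESeq2 adjusted p 0.899). The copy with the most reads, tRNA:Gly-TCC-1-2, was at -0.31 ± 0.30 (SE; adjusted p 0.582), and tRNA:Gly-TCC-1-1 at -0.25 ± 0.34 (SE; adjusted p 0.75). Gly-GCC, the main glycine tRNA, had a mean of -0.03 over 14 genes with an SD over copies of 0.04, and none was called.

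The other 8 families had mean counts near or under 10, and only tRNA:Gln-TTG-1-1 reached 10. A mean normalised count adds up whole reads, and what 1 read adds depends on the library alone, so the reads of these genes could be recovered library by library. The lowest mean counts of the tRNA run could be written for 33 of 33 values with 6 libraries and for 25 with 5. Other numbers of libraries were not tried. Arms of 3 libraries each were assumed, and the labels list 3 Sxl-RAC samples but no controls. The deposited fold changes served to choose which libraries form which arm and, for 3 of the genes, which of several solutions was taken. Unequal arms were not tried. Every value per library, SD and permutation p below rests on this layout. The control libraries are called A, B and C here, and the Sxl-RAC libraries D, E and F, each in order of falling size factor. These letters are not the sample numbers of the labels. In all, 30 of the 48 genes were recovered, with 744 reads between them, 27 in 1 way only and 3 by also using the deposited fold change. The letters and arms rest on the deposited fold changes themselves and are a description, not an independent check of direction. For copies above a mean count of 12, which include all Pro-TGG, Val-TAC and Ala-TGC copies, no value per library is given.

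Both copies of the second Gly-TCC isodecoder were among the 30. With tRNA:Gln-TTG-1-1 they are the 3 genes whose reads could be written in several ways and were picked by the deposited fold change. All 3 have mean counts above 10, where recovery was not checked on simulated counts. In control libraries A to C tRNA:Gly-TCC-2-1 had normalised counts of 10.9, 8.62 and 9.76, and in Sxl-RAC libraries D to F 13.6, 18.4 and 9.61. For tRNA:Gly-TCC-2-2 they were 12.8, 15.5 and 9.76 against 10.5, 14.7 and 3.20. The arms overlapped in both copies, and library F was the lowest for tRNA:Gly-TCC-2-2.

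Gln-TTG, a glutamine tRNA of a split box, had 233 reads over its 4 copies. Summed over copies, its normalised counts were 36.0, 32.8 and 36.6 in control libraries A to C and 40.805, 25.7 and 41.6 in Sxl-RAC libraries D to F. The arms overlapped, with means of 35.1 ± 2.08 and 36.0 ± 8.97 (SD, n = 3 each; two-sided exact permutation test over libraries, p = 1). The single copy tRNA:Gln-TTG-1-1 on chromosome 3L had a log2 fold change of 0.55 ± 0.59 (SE) in the authors' deposited table and no adjusted p. Its sister copies tRNA:Gln-TTG-1-2 and tRNA:Gln-TTG-1-3, 178 bases apart on chromosome 3R, were at -0.01 and -0.43. The 95% intervals of the 3 copies overlap, and each includes both 0 and 0.55.

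Leu-TAG and Ser-TGA, of boxes with 4 codons read by several leucine or serine tRNAs, each exist as a pair of neighbouring genes. The 2 Leu-TAG genes summed to 16.9, 16.4 and 14.6 normalised counts in the control libraries and to 9.42, 28.1 and 16.01 in the Sxl-RAC libraries. Here the Sxl-RAC libraries lay on both sides of all control libraries (log2 ratio of means 0.16, exact permutation p = 0.9). Ser-TGA had 11.9, 21.5 and 15.9 against 8.37, 23.2 and 11.2 (log2 ratio -0.20, exact permutation p = 0.7). In both families library E held the highest and library D the lowest of the 6 values. The copies with the most reads, tRNA:Leu-TAG-1-2 and tRNA:Ser-TGA-1-1, had deposited log2 fold changes of -0.21 and -0.15 with standard errors of 0.65 and 0.62.

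Arg-TCG is the largest of the 12 families and was among the least read. Its 10 copies gave 51 reads, of which 29 fell on tRNA:Arg-TCG-4-1, a gene on chromosome 3R in an intron of kkv, the chitin synthase gene, on the opposite strand. The normalised counts of tRNA:Arg-TCG-4-1 were 5.47, 0.862 and 7.32 in control and 2.09, 9.79 and 0 in Sxl-RAC libraries, and the authors' deposited table lists its log2 fold change as -0.15 ± 1.01 (SE). Its values varied within each arm by more than the arms differed. The cluster of 5 copies on chromosome X between 14014814 and 14017284 gave 1 read or 2 reads per copy, or none. Summed, the family had means of 7.19 ± 3.28 in control and 7.71 ± 3.12 in Sxl-RAC libraries (SD, n = 3 each; exact permutation p = 0.8).

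Arg-TCT, whose counterpart in mouse includes a gene known for its expression in brain, had reads for 1 of 3 copies. That copy, tRNA:Arg-TCT-1-1, had 7 reads, 3 in control and 4 in Sxl-RAC libraries, and a deposited log2 fold change of 0.87 ± 1.66 (SE). The 4 Leu-TAA copies had 4 reads in all, 3 of them on tRNA:Leu-TAA-4-1, which lies in an intron of jar. With so few reads neither family allows a statement on change.

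Thr-TGT and Ile-TAT complete the set. The 6 Thr-TGT copies gave 59 reads, with summed normalised counts of 7.75, 10.3 and 6.10 in control and 12.6, 9.79 and 8.005 in Sxl-RAC libraries. The arms overlapped (log2 ratio 0.33, exact permutation p = 0.4). Its most read copy, tRNA:Thr-TGT-2-3, had a deposited log2 fold change of 0.77 ± 1.16 (SE). The Ile-TAT genes were the only 2 of the 48 annotated with an intron, of 24 bases in tRNA:Ile-TAT-1-1 and 26 in tRNA:Ile-TAT-1-2, which the cell must splice out before the tRNA can work. Their 28 reads gave means of 4.62 ± 3.40 in control and 4.97 ± 3.11 in Sxl-RAC libraries (SD, n = 3 each; exact permutation p = 0.5), and the values overlapped. For tRNA:Ile-TAT-1-1 the authors' deposited table gives a log2 fold change of 0.22 ± 1.04 (SE).

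**Figure D3:**
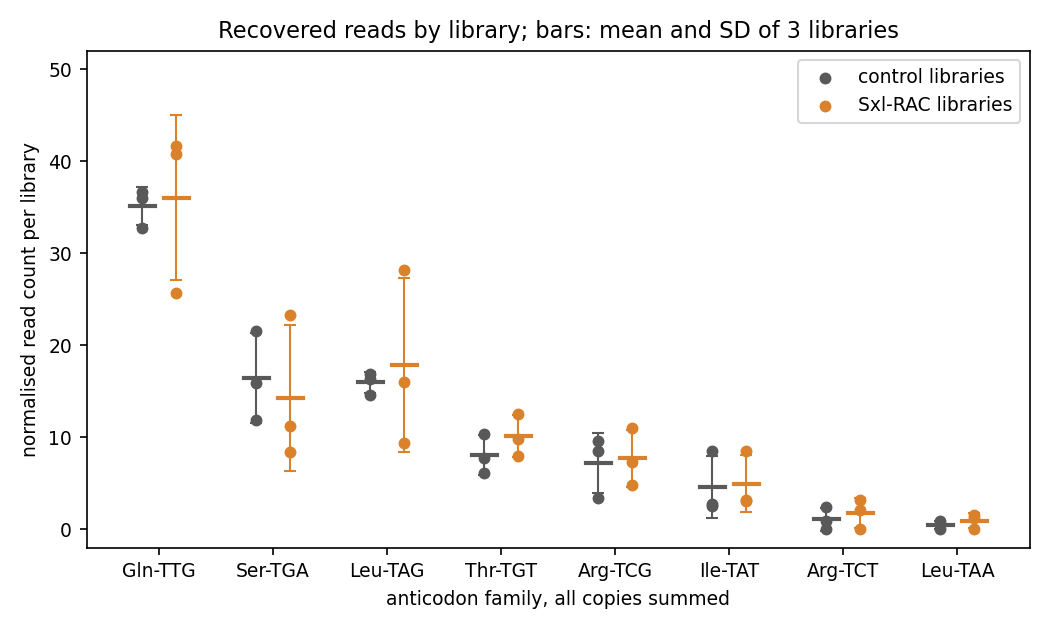
Points are normalised read counts per library (vertical axis), summed over all copies of each of the 8 sparsely read families (horizontal axis), for 3 control and 3 Sxl-RAC libraries; bars are the mean and SD. The arms overlap in every family, and the Sxl-RAC points of Gln-TTG and Leu-TAG are spread more widely than the control points. The layout of 3 libraries per arm was assumed.

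Over these 8 families together, 33 genes with 590 reads, the summed normalised count was 88.9 ± 3.73 in control and 93.7 ± 12.5 in Sxl-RAC libraries (SD, n = 3 each; two-sided exact permutation p = 0.8). The log2 ratio of the means was 0.07. The smallest p that 3 against 3 libraries allow is 0.1, so this design could not reach 0.05, and after adjustment over the 8 families every p was 1. Without library E the log2 ratio was -0.04.

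Beside the 0 of 14 called here stand the other tRNAs with a wobble uridine, and the difference itself was not tested. The authors' deposited table called 5 of 13 tested Lys-TTT, Glu-TTC and SeC-TCA genes higher and 6 lower. Of 53 tested tRNA genes that carry the same amino acids with another wobble base, 1 was called. Where the mean count reached 10, the log2 fold change had a median of -0.13 over 16 genes of the 12 families, -0.06 over 54 of those isoacceptors and -0.04 over all 141 nuclear tRNA genes. Split boxes could not be set against 4-codon boxes, since no split-box gene had an adjusted p.

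Precision differed between these lists. The 14 tested genes had a median mean count of 70.3 and a median standard error of 0.25, against 1052 and 0.10 for the 123 other tested nuclear tRNA genes. Among 65 of those others with standard errors in the same range as the 14 (0.0957 to 0.533), 12 were called. Among 70 with a standard error no larger than the largest of the Pro-TGG copies, 22 were called, while 0 of 5 Pro-TGG copies were. Those 22 were mostly Lys-CTT and Glu-TTC copies, and the rest were Asp-GTC and Tyr-GTA copies. Copies of a family may share reads, so these are counts of copies and not of separate measurements.

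**Figure D4:**
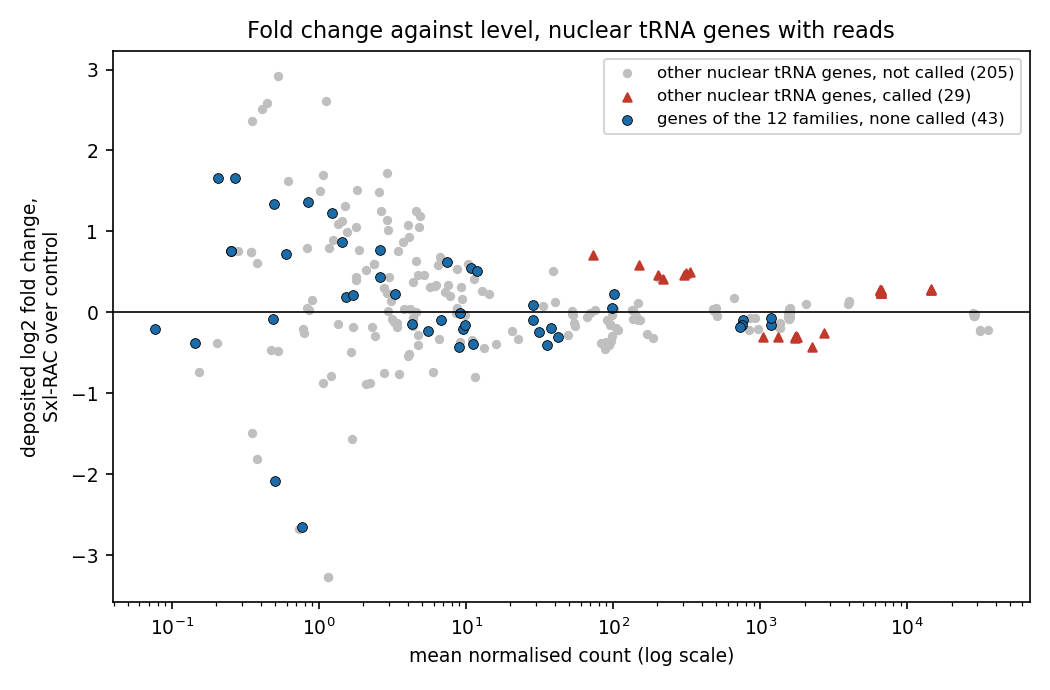
Each point is a nuclear tRNA gene with reads, by mean normalised count (horizontal log axis) and deposited log2 fold change (vertical axis). The 43 genes of the 12 families, in blue, include none of the 29 called genes (red triangles), and their scatter widens below a mean count of 10.

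These values hold relative to tRNA as a class. The authors' adjustment followed annotation classes, with microRNAs apart from other noncoding RNA. Size factors recovered from the lowest counts differed between the tRNA and microRNA runs. Placing tRNA on the scale of the microRNA run moved every log2 fold change by -0.43. Its standard error was 0.10 between libraries matched by rank of size factor within each arm. Libraries of the 2 runs could not be linked, and this matching gives the smallest standard error that any pairing within arms allows. On that scale all 5 Pro-TGG genes were lower in Sxl-RAC heads with a mean of -0.57, as were tRNA:Gly-TCC-1-2 at -0.74 and tRNA:Ala-TGC-2-1 at -0.83. Those 7 of 14 passed a recomputed Wald test at an adjusted p under 0.05 and none was higher, where 65% of 137 nuclear tRNA genes passed as lower. With this smallest error of the offset included 7 of 14 passed as well, against 56.9% of the 137, and a larger error was not tried. The share of the 14 genes was no larger than that of nuclear tRNA as a whole. Which scale reflects amounts per cell was not tested.

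**Figure D5:**
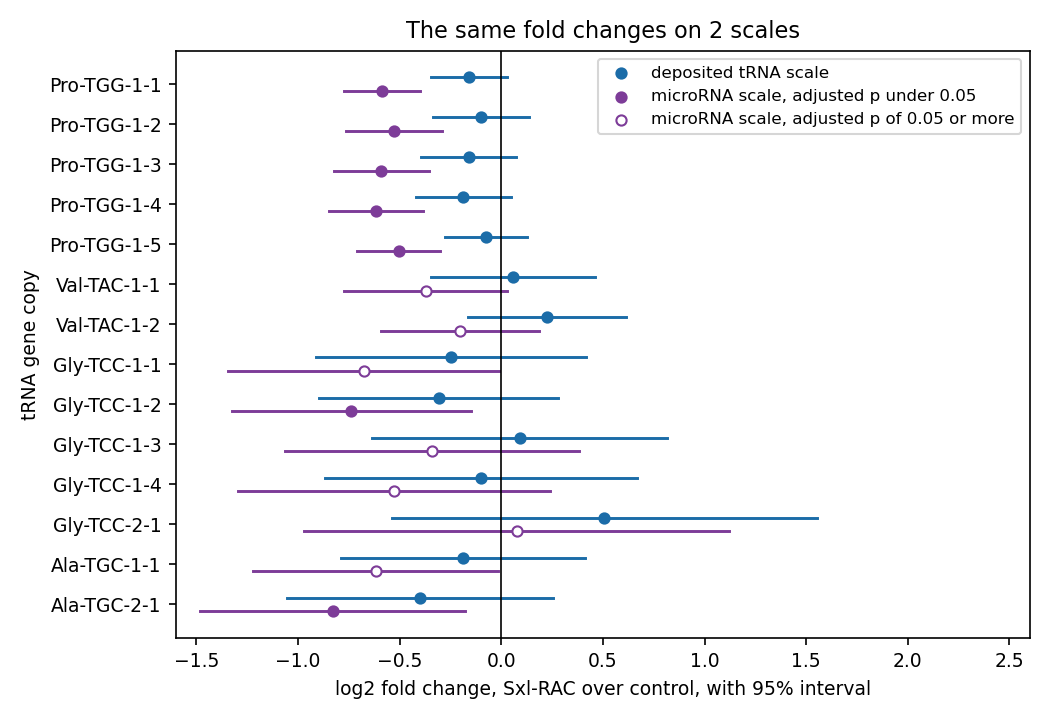
Log2 fold changes (horizontal axis, with 95% intervals from the authors' standard errors) of the 14 tested gene copies on the deposited tRNA scale and on the microRNA scale, which is moved by -0.43. Filled purple points, the 5 Pro-TGG copies among them, passed on the microRNA scale; no copy passed on the deposited scale.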

How the data were processed

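Per the submitters' processing notes, the authors used Trim Galore 0.6.7, Bowtie2 2.5.3, featureCounts 2.0.8 and DESeq2 2.11.40.8. Roles, genome build, annotation, strand and the treatment of reads with several matches are not given in the sources used here. The deposited table has 1 row per gene and no value per sample. Per the file headers its base mean is a signal, read counts divided by size factors and averaged over all libraries. The deposited fold change and standard error are log2 values, Sxl-RAC over control by the table's name. The deposited Wald statistic is a score, their ratio. The p-value and adjusted p-value are the authors'. Total depth per library is unknown.

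The Ensembl release 115 annotation, build BDGP6.54, held 3545 of 3546 gene identifiers and gave symbols and 1-based coordinates. The annotation class ncRNA was split into microRNAs, with symbols that begin with mir-, and the rest. Adjusting p by Benjamini-Hochberg inside each class so formed returned the deposited value within 1% for 1128 of 1128 genes. Size factors came from writing all mean counts under 0.95 of a run as sums of up to 11 whole reads: 33 of 33 tRNA and 35 of 35 microRNA values could be written with 6 libraries, 25 and 26 with 5. Other numbers of libraries were not tried, and arms were set at 3 libraries each. Ties went to the fewest reads. The largest tRNA factor was 3.51 times the smallest. Reads of tRNA genes under a mean count of 12 were then solved, with tolerances of 3e-09 under 10 and 8e-09 from 10: 146 of 155 genes in 1 way, 9 also by fold change. On simulated tRNA counts the true reads were found for 139 of 139 genes under 10. Intervals are at 95%. Python 3.11.15, numpy 2.4.6, pandas 2.3.3 and scipy 1.17.1 were used.

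Genes and lists were chosen with earlier results of these data known. Genes named are the called ones, the most read of each family, the 5 highest and 5 lowest fold changes at a mean count of at least 10, and the smallest p in each direction. Others were named after their values were seen. Sequences are not reported here.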

Additional observations from a re-analysis of the deposited data

How the results depend on the processing

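The count of 0 genes called, in either direction, was the same with a threshold of 0.1, with adjustment over every gene with a p-value or over every gene with a mean count of at least 10, without the filter on low counts, after centring on the median of nuclear tRNA genes, and with 1 entry for each isodecoder number (added after seeing the data). Part of this result was fixed in advance. The smallest unadjusted p of these genes was 0.0988 (Wald test of DESeq2), and adjustment cannot lower a p-value. A change of adjustment or filter alone could therefore not bring any gene under 0.05. With a smallest deposited adjusted p of 0.249, the threshold of 0.1 could not call a gene either. The scale changed the count: on the microRNA scale 7 genes were lower. With the smallest spread of the offset added on that scale, an alternative also added later, 7 were lower as well. On that scale the family means moved to -0.72 for Ala-TGC, -0.50 for Gly-TCC, -0.57 for Pro-TGG and -0.29 for Val-TAC, and 4 named genes changed sign: tRNA:Gly-TCC-1-3 to -0.34, tRNA:Ile-TAT-1-1 to -0.21, tRNA:Val-TAC-1-1 to -0.37 and tRNA:Val-TAC-1-2 to -0.20, none of them called. The change follows from the offset itself. Family means weighted by count or precision, over all copies, or centred stayed within 1 SD over copies or, for Gln-TTG, 1 standard error. The Gln-TTG value is that of tRNA:Gln-TTG-1-1 alone, with a standard error of 0.59. Over all 4 Gln-TTG copies it fell from 0.55 to 0.004. Leaving out each recovered library moved the summed log2 ratio of the sparsely read families from -0.04 to 0.15. Grouping copies by identical sequence was not run. No paired analysis was possible because the table has no value per sample and the labels number 1 arm only. Depth limits 27 genes with a mean count under 10, whose median standard error was 1.66.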

Other observations

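Of the 30 genes with recovered reads, 15 had fewer than 10 reads in all 6 libraries and 6 had reads in 1 arm only, 4 of them in control and 2 in Sxl-RAC libraries. That is 20% of the 30, beside 22 of 155 tRNA genes with recovered reads (14.2%), 13 of them read in control and 9 in Sxl-RAC libraries only. Control libraries had larger size factors in the tRNA run on average, 2.19, 1.16 and 0.819 against 0.956, 0.817 and 0.625. In the microRNA run the factors, also in falling order, were 1.83, 0.936 and 0.772 against 0.998, 0.976 and 0.776. The tRNA factors follow tRNA reads and not total depth, and their part in these counts was not tested. Chosen after its values were seen, tRNA:Thr-TGT-2-2 had 5 reads, spread as 1, 2 and 2 over the control libraries with 0 in the Sxl-RAC libraries. Likewise tRNA:Arg-TCG-2-2 had 4 reads, all in control libraries. Both have sister copies with the same isodecoder number that were read in both arms, such as tRNA:Thr-TGT-2-1 with 9 control and 7 Sxl-RAC reads.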
